A study of Arabidopsis thaliana with 6 samples.

Results

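The entries described here are the miRNAs of Arabidopsis thaliana, grouped as young, whose first listed name carries a miR number from 400 to 900, outside 22 excepted numbers that belong to other groupings (miR400, miR403, miR408, miR472, miR773, miR778, miR822, miR824, miR825, miR827, miR828, miR837, miR838, miR839, miR842, miR843, miR846, miR850, miR852, miR857, miR863 and miR869). The grouping goes by number, and the evolutionary age of the single entries was not checked. All arms were kept whatever their abundance, which gave 39 of the 197 entries in the tables; an entry is 1 row, which joins miRNAs of the same mature sequence. The 39 entries hold 41 miRNA names from 33 precursors, and all 41 names were found in the RefSeq annotation. Small RNA of seedlings was sequenced in 3 libraries of aar2-1 and 3 of wild type (WT). Both genotypes were 14 days old, were grown on MS medium with 16 h light and 8 h dark, and were described as biological replicates. The labels name the mutant only as aar2-1, so the kind of allele and the accession of either genotype are not given here, and whole seedlings mix all tissues. The tables hold miRNAs alone, so neither AAR2 nor marker genes of a tissue were measured.

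A miRNA is cut by DICER-LIKE 1 from the hairpin of a longer transcript as a duplex, of which 1 strand usually stays in an ARGONAUTE protein and guides it to complementary transcripts. Many miRNAs of Arabidopsis that are found only in it or its close relatives are called young: they tend to come from single loci, to be weakly expressed and to have few or no established targets. AAR2 is related to proteins of yeast and animals that help to assemble a subunit of the spliceosome.

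The mature sequences are given 5′ to 3′ from the RefSeq annotation of TAIR10.1, with bases 2 to 8, the seed, in capitals. The first set holds the 5 most abundant products, because most of the summed abundance rests on them.
miR447a.2-3p: uAUGGAAGaaauuguaguauu
miR858a: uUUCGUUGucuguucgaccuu
miR845a: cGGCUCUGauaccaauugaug
miR775: uUCGAUGUcuagcagugcca
miR447a-3p;miR447b: uUGGGGACgagauguuuuguug
The second set holds the other entries that passed the test for a lower abundance in aar2-1.
miR781a;miR781b: uUAGAGUUuucuggauacuua
miR866-3p: aCAAAAUCcgucuuugaaga
miR779.2: uGAUUGGAaauuucguugacu
miR823: uGGGUGGUgaucauauaagau
miR848: uGACAUGGgacugccuaagcua
miR847: uCACUCCUcuucuucuugaug
The third set holds both arms of MIR841a, which had no read in aar2-1, and both arms of MIR840, whose strands were set against each other.
miR841a-5p: uACGAGCCacuugaaacugaa
miR841a-3p: aUUUCUAGugggucguauuca
miR840-5p: aCACUGAAggaccuaaacuaac
miR840-3p: uUGUUUAGgucccuuaguuuc
The last set shows members that share a run of bases with miR845a.
miR845b: uCGCUCUGauaccaaauugaug
miR829-3p.1: aGCUCUGAuaccaaaugauggaau

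In TAIR10.1, with the strand in parentheses, the sequences of the most abundant entries lie outside other genes of their strand, miR447a.2-3p at chr4:1528148-1528168 (minus), miR447a-3p at chr4:1528190-1528211 (minus), miR447b at chr4:1535482-1535503 (minus), miR858a at chr1:26773695-26773715 (minus), miR845a at chr4:12217457-12217477 (minus) and miR775 at chr1:29422546-29422565 (plus). Of the other entries that passed, miR866-3p at chr5:16157838-16157857 (minus), miR779.2 at chr2:9560866-9560886 (plus), miR823 at chr3:4496826-4496846 (minus) and miR847 at chr1:2165675-2165695 (plus) do so too, while miR781a at chr1:7423523-7423543 (plus) and miR848 at chr5:4479448-4479469 (minus) lie in introns. The arms of MIR840 lie in an exon, miR840-5p at chr2:771492-771513 (minus) and miR840-3p at chr2:771385-771405 (minus).

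The seeds of these entries were almost all different. Of the 39 entries, 30 began with U, 6 with A, 2 with C and 1 with G; 26 were 21 bases long, 10 were 22, 2 were 20 and 1, miR829-3p.1, was 24. Their GC content ran from 23.8% to 52.4% with a median of 38.1%. The only seed that one of the 39 entries shared with another entry was GUUUGUU, in miR833a-5p and miR833b, from overlapping precursors on opposite strands of chromosome 1. The entry miR781a;miR781b likewise comes from both strands of 1 site, in an intron of AT1G21200. The sequence of miR858b is that of miR858a moved by 1 base, with 20 shared bases, and it also occurs exactly within MIR858a, so its reads cannot be assigned to 1 precursor. The same holds for miR447a.2-3p, which matches both MIR447a and MIR447b. The entries miR845a, miR845b and miR829-3p.1 share the run GCUCUGAUACCA, which no other of the 428 annotated mature miRNAs holds. The run is also the 3′ end, with its CCA tail, of 8 of 625 nuclear tRNA genes, all of them tRNA-Met. As background, miR845 is known for pairing with primer binding sites of retrotransposons, which are complementary to the end of that tRNA.

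The unit of the tables is not named and was taken as RPM, the reads of an entry scaled to a fixed library size. The lowest value above 0 in a library was taken as 1 read, worth 0.0868 to 0.142 RPM. On that reading, 7062198 to 11524176 reads are in the denominator of a library. All 197 entries together summed to 22297 ± 4808 RPM in aar2-1 and 50742 ± 3866 RPM in WT (SD, n = 3 each). RPM is a share of a library, so less of a miRNA, fewer cells that make it and more of other small RNA cannot be told apart. Of the 131 entries with a mean of at least 1 RPM, the median log2 fold change of aar2-1 over WT was -0.83, and this shared fall is the background of every comparison below.

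The summed abundance of the 39 entries overlapped between the genotypes, while that of all entries was 2.28-fold lower in aar2-1. They summed to 275, 170 and 186 RPM in aar2-1 replicates 1 to 3, against 315, 227 and 274 RPM in WT replicates 1 to 3. The means were 210 ± 56.5 RPM in aar2-1 and 272 ± 43.9 RPM in WT (SD, n = 3 each), 1.29-fold lower in aar2-1, and the values of the genotypes overlapped. The difference of -61.6 RPM was -93.9 RPM without aar2-1 replicate 1 and -40.1 RPM without WT replicate 1. Its direction turned when each library was divided by its median ratio over abundant entries, with 301 RPM in aar2-1 and 185 RPM in WT. As a share of all miRNA, the 39 entries made up 0.993%, 0.818% and 1.01% in aar2-1, against 0.593%, 0.491% and 0.518% in WT, so that each aar2-1 library stood above each WT library. The summed abundance of aar2-1 over WT was 0.77 for the 39 entries and 0.44 for all entries. Entries numbered above 900 also fell less than all entries, with 686 RPM in aar2-1 and 1086 RPM in WT, a ratio of 0.63. It was 0.44 for numbers below 400 and 0.37 for the excepted numbers. These sums describe chosen entries and were not tested. Of the sum, 67.4% ± 1.87 in aar2-1 and 56.3% ± 3.29 in WT came from miR447a.2-3p, miR858a and miR845a. These 3 summed to 142 ± 40.4 RPM in aar2-1 and 154 ± 33.3 RPM in WT. The other 36 entries summed to 68.2 ± 16.4 RPM in aar2-1 and 118 ± 12.0 RPM in WT, which is 1.73-fold lower in aar2-1.

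**Figure D1:**
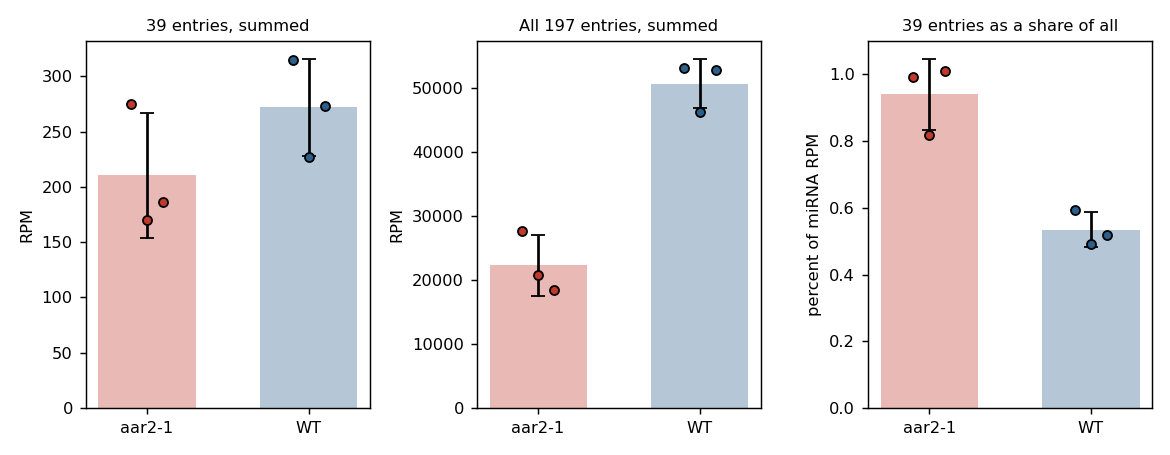
Summed abundance of the 39 entries (left), of all 197 entries (middle), both in RPM, and the 39 entries as a percentage of all miRNA RPM (right); points are libraries, bars the mean and error bars the SD of 3 libraries, aar2-1 left of WT. The left sums overlap between genotypes, the middle ones do not, and the share on the right is 0.818% to 1.01% in aar2-1 and 0.491% to 0.593% in WT.

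Reads were present for 37, 30 and 29 of the 39 entries in aar2-1 and 37, 35 and 37 in WT, or 32.0 ± 4.36 in aar2-1 and 36.3 ± 1.15 in WT (SD, n = 3 each). At a common depth of 7062198 reads, 35.1, 30.0 and 28.2 entries were expected in aar2-1, against 36.1, 34.2 and 36.3 in WT. The number in aar2-1 replicate 1 lay within the WT range, and those of the other aar2-1 libraries lay below it. The common depth makes the inferred denominators equal, but not the reads of miRNAs. Over all entries these were 318995, 146758 and 162300 in aar2-1, against 497904, 451473 and 449241 in WT. The shared fall of miRNAs is therefore still in these numbers, and detection at equal miRNA reads was not tested.

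Both arms of MIR841a were without a read in all 3 aar2-1 libraries. The entry miR841a-3p had 0, 0 and 0 reads in aar2-1, against 18, 13 and 11 reads in WT, and miR841a-5p had 0, 0 and 0 reads in aar2-1, against 7, 7 and 7 in WT. Over both arms, that is 0 of an inferred 27392598 reads in aar2-1 and 63 of an inferred 27632320 in WT. A count of 0 over the aar2-1 libraries together allows up to 3 reads, or 0.110 RPM, and this floor covers counting error only. Against it, with the WT counts taken as observed, miR841a-5p was at least 6.94-fold lower and miR841a-3p at least 13.9-fold lower in aar2-1. Counting error of the WT reads is not in these bounds. Across all 197 entries, 5 had no read in aar2-1 and reads in every WT library (2.54%), and 2 of these 5 were the arms of MIR841a; the reverse pattern occurred for 0 entries. Both arms have a mean below 1 RPM and stood outside the main test. In a limma fit of all 197 entries without a filter, the log2 fold change was -1.32 for miR841a-3p (SE 0.16, limma adjusted p = 1.12e-04). For miR841a-5p it was -0.82 (SE 0.12, limma adjusted p = 2.84e-04). These values depend on the pseudocount of 1. The aar2-1 values are all 0, so each SE rests on the spread in WT and on the variance trend. Both arms were named for their 0 reads in aar2-1, so these p-values are no separate support for that pattern.

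No role is stated here for miR841a. MIR841a lies at chr4:7885251-7885462 on the minus strand of TAIR10.1, opposite HTA4, a gene of the histone H2A class, and outside other genes of its own strand. The precursor is shown as RNA with its arms in capitals, the 5p arm first, because neither arm of this hairpin had a read in aar2-1.
MIR841a precursor: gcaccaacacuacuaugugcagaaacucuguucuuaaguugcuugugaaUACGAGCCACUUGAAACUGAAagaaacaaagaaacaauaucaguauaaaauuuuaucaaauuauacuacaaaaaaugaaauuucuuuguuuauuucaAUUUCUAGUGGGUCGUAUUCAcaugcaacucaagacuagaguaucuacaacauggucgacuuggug
The sequence of miR841a-3p also occurs exactly within MIR841b, on the plus strand of chromosome 4 from 2184422 to 2184442, whereas miR841a-5p occurs once in the genome. Reads of miR841a-3p in WT can therefore come from either locus, and only the bound of 6.94-fold from miR841a-5p is one on MIR841a itself.

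The closest miRNA entries on either side of MIR841a were also nearly absent in aar2-1, and the differences of those farther away were far smaller. The entry miR5996, whose precursor lies 2.53 kb away, had 0.174, 0.142 and 0.114 RPM in aar2-1, against 11.8, 12.9 and 14.3 RPM in WT. The entry miR3932b-5p, 5.29 kb away on the other side, had 1.04, 0.566 and 1.25 RPM in aar2-1, against 72.6, 94.8 and 80.3 RPM in WT. These are 1.10% and 1.15% of the WT means (log2 fold changes -3.61 and -5.43, limma adjusted p = 8.54e-09 and 9.45e-10). At 6.65 and 6.98 kb, beyond miR5996, miR397b and miR857 kept 58.0% and 62.0% of their WT means, and neither passed the test (limma adjusted p = 0.141 and 0.0897). At 38.6 to 40.8 kb on that side, the entries of MIR863, MIR850 and MIR5026 stood at 31.8% to 69.9% of WT, and of these miR863-5p passed as lower (log2 fold change -0.86, limma adjusted p = 0.00701). On the side of miR3932b-5p the next entry, miR852, lies 451 kb away and stood at 70.0% of WT. Whether the DNA or the transcripts of this stretch differ between the lines was not tested.

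**Figure D2:**
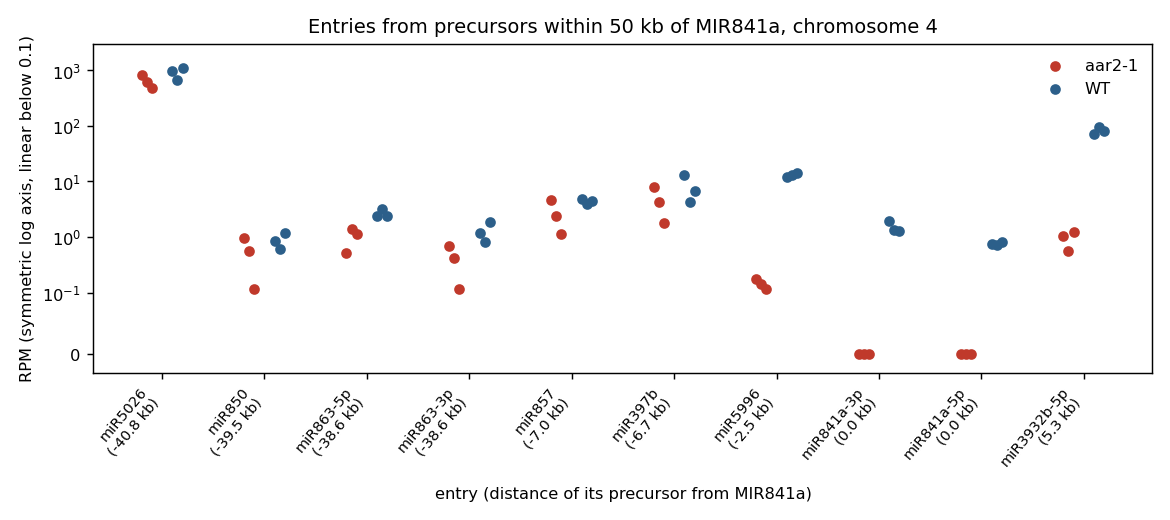
RPM of each library (points; symmetric log axis) for the entries from precursors within 50 kb of MIR841a, ordered along chromosome 4 with the distance in kb, aar2-1 left of WT. The aar2-1 points of miR5996, both arms of MIR841a and miR3932b-5p lie far below WT, at 0 to 1.25 RPM, while those of the entries 6.65 kb and more away overlap WT or lie much closer to it.

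The test across entries was limma on log2(RPM + 1), with p-values adjusted by Benjamini-Hochberg over all 131 tested entries and a threshold of 0.05. Of the 39 entries, 18 had a mean of at least 1 RPM and were tested. Of these 18, 7 were lower in aar2-1 past the threshold, where 61.1% of all tested entries were, and 0 were higher, where 2.29% were. The genotypes did not overlap for 9 of the 18, all lower in aar2-1, against 59.5% of all tested entries. Among the 6 with a mean of at least 10 RPM, a fit of such entries alone called 2 lower and 0 higher, where 63.8% and 1.45% of its entries were. The median log2 fold change of the 18 was -0.50, from -1.25 to 0.33, beside -0.83 over all tested entries; it was -0.95 for the 74 tested entries numbered below 400, -0.69 for the 19 above 900 and -0.90 for the 20 with excepted numbers. These medians are descriptions, and no difference between the lists was tested. The median of the 18 was -0.81 with a pseudocount of 0.1 and -0.23 with one of 5. A pseudocount shrinks the changes of rare entries most. The medians of the other lists are given with a pseudocount of 1 only, so they do not show whether the 18 fell less. Leaving out 1 library moved the 7 calls to 11 without aar2-1 replicate 1, 3 without aar2-1 replicate 2, 4 without WT replicate 1 and 3 without WT replicate 3. Of the 18 entries, 13 had their highest aar2-1 value in aar2-1 replicate 1, and 13 had their lowest WT value in WT replicate 2, without which 9 passed. The filter used the mean of all libraries, and 4 of the 18 (miR829-3p.1, miR847, miR848 and miR865-5p) had a mean below 1 RPM in aar2-1 and so entered through WT, against 0 that entered through aar2-1. The counts and the median over the 18 are therefore descriptions of the tested entries and not of all 39.

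**Figure D3:**
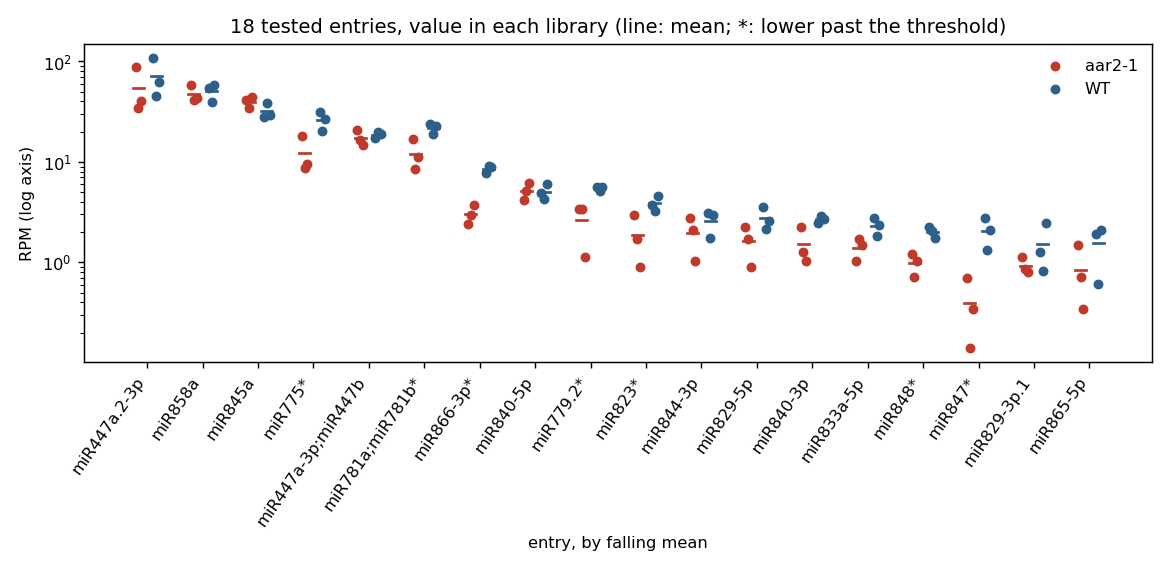
RPM of the 18 tested entries in each library (points, log axis; short lines are means of 3 libraries), aar2-1 left of WT, ordered by mean abundance, with an asterisk at the 7 entries lower in aar2-1 past the threshold. The points of the genotypes are interleaved for miR447a.2-3p, miR858a, miR845a, miR447a-3p;miR447b and miR840-5p and apart for the marked entries.

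A factor per library changes the direction of many of these entries. When each library was divided by its median ratio over abundant entries, the median of all 131 tested entries moved by 0.84 to 0.01, and that of the 18 moved to 0.17. On that scale 5 of the 18 were higher past the threshold (miR845a, miR858a, miR840-5p, miR447a-3p;miR447b and miR447a.2-3p), against 16.8% of all tested entries, and 1 was lower, miR847, against 20.6%. With the same factors, 6 of the 19 tested entries numbered above 900 were higher past the threshold and 4 were lower. Of the 20 with excepted numbers 3 were higher and 6 lower, and of the 74 below 400 8 were higher and 16 lower. No difference between these lists was tested. A fold change called scaled below is on the scale of these factors, and it shows a change relative to other miRNAs.

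**Figure D4:**
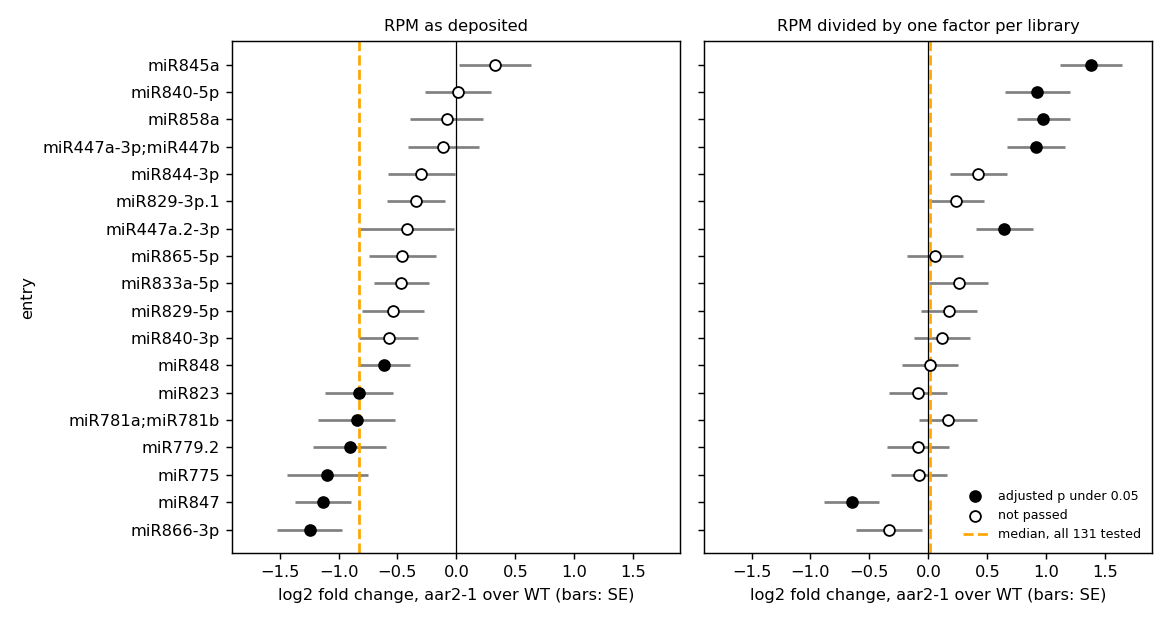
Log2 fold changes of aar2-1 over WT with SE for the 18 tested entries, on RPM as deposited (left) and after division by 1 factor per library (right); filled points passed an adjusted p of 0.05, and the dashed line is the median of all 131 tested entries, at -0.83 on the left and 0.01 on the right. The order is similar on both sides, with miR845a at the top and miR847 and miR866-3p at the bottom.

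Among the entries tied to chromatin and transposons, 1 of the 2 tested fell and 0 rose on the deposited values (61.1% and 2.29% of all tested entries), and 0 fell and 1 rose on the scaled ones (20.6% and 16.8% of all tested entries). The entry miR823 targets CMT3, a chromomethylase that methylates cytosines outside CG sites. It had 2.95, 1.70 and 0.908 RPM in aar2-1, against 3.73, 3.28 and 4.59 RPM in WT. Each aar2-1 value was below each WT value, and the mean was 1.85 ± 1.03 RPM in aar2-1 and 3.87 ± 0.662 RPM in WT (SD, n = 3), at -0.83 on the log2 scale (SE 0.29, limma adjusted p = 0.0214). Its scaled log2 fold change was -0.09 (adjusted p = 0.829), so its fall was about that of all tested entries.

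The entry miR845a had 41.0, 34.6 and 44.3 RPM in aar2-1, against 27.96, 38.3 and 29.0 RPM in WT. The genotypes overlapped through WT replicate 2, which lay between the aar2-1 values. The log2 fold change was 0.33 (SE 0.31, limma adjusted p = 0.335), which did not pass, and the scaled one was 1.38 (SE 0.26, adjusted p = 6.64e-05). Its relative miR845b, on the same chromosome, was too rare to test, with 2, 0 and 3 reads in aar2-1, against 6, 4 and 4 in WT.

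The entries tied to metabolism, the cell wall and transport number 9, and of the 5 tested, 1 fell and 0 rose on the deposited values, while 0 fell and 3 rose on the scaled ones. Over all tested entries, 61.1% fell and 2.29% rose on the deposited values, and 20.6% fell and 16.8% rose on the scaled ones. The entry miR775 targets GALT9, a galactosyltransferase gene. It had 18.2, 8.78 and 9.54 RPM in aar2-1, against 31.5, 20.5 and 26.6 RPM in WT. All aar2-1 values lay below all WT values, and the means were 12.2 ± 5.25 RPM in aar2-1 and 26.2 ± 5.50 RPM in WT, 2.15-fold lower in aar2-1. The log2 fold change was -1.09 (SE 0.34, adjusted p = 0.0123 in limma) and the scaled one -0.08 (adjusted p = 0.829).

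The entry miR858a represses MYB transcription factors that switch on flavonol synthesis. It had 58.1, 41.8 and 43.0 RPM in aar2-1, against 54.0, 39.6 and 58.4 RPM in WT. The ranges of both genotypes nearly coincide, and the log2 fold change was -0.08 (SE 0.31, limma adjusted p = 0.816) beside a scaled one of 0.98 (SE 0.23, adjusted p = 8.88e-04).

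The MIR447 hairpins give products that target 2-phosphoglycerate kinase genes. The entry miR447a.2-3p, the most abundant of the 39, had 88.6, 34.6 and 40.4 RPM in aar2-1, against 107, 45.1 and 62.0 RPM in WT. The spread within each genotype was wider than the difference between them, with replicate 1 highest in both, and the log2 fold change was -0.42 (SE 0.40, limma adjusted p = 0.342). Leaving out 1 library moved it between -0.82 without aar2-1 replicate 1, where it passed (limma adjusted p = 0.0355), and -0.08 without WT replicate 1. The joined entry miR447a-3p;miR447b had 20.999, 16.6 and 14.6 RPM in aar2-1, against 17.4, 19.7 and 19.0 RPM in WT, a difference of -0.11 in log2 (SE 0.30, limma adjusted p = 0.747). The WT values lay within the range of the aar2-1 values. The scaled log2 fold changes were 0.64 (adjusted p = 0.0321) for miR447a.2-3p and 0.91 (adjusted p = 0.00399) for miR447a-3p;miR447b. The ratio of reads of the first to reads of the second was 4.22, 2.09 and 2.76 in aar2-1, against 6.17, 2.29 and 3.25 in WT, which overlap (two-sided exact permutation p = 0.60, with 0.10 the smallest possible).

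The last tested entry of this grouping was miR844-3p. As background, miR844 is tied to CDS3, which encodes an enzyme of phospholipid synthesis, and which arm targets it is not stated here. The annotation instead names a protein kinase family member associated with a ubiquitin ligase complex as its target. The values of miR844-3p were 1.02 to 2.78 RPM in aar2-1 and 1.74 to 3.09 RPM in WT (log2 fold change -0.30, SE 0.28, limma adjusted p = 0.340). Of those too rare to test, miR826a, which targets the glucosinolate gene AOP2, had 4, 1 and 3 reads in aar2-1, against 12, 9 and 14 reads in WT. Its genotypes did not overlap, and in the fit without a filter its log2 fold change was -0.83 (SE 0.18, limma adjusted p = 0.00283). This entry was chosen after its values were seen.

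The entries that target F-box, hormone and other regulators number 7, and of the 4 tested, 1 fell and 0 rose on the deposited values, while 1 fell and 1 rose on the scaled ones, beside the same shares over all tested entries (61.1% and 2.29% as deposited, 20.6% and 16.8% scaled). The entry miR847, which targets the auxin repressor IAA28, had 0.694, 0.142 and 0.341 RPM in aar2-1, against 2.77, 1.33 and 2.12 RPM in WT. That is 8, 1 and 3 reads in aar2-1, against 26, 13 and 18 reads in WT, with no overlap. The means, 0.392 ± 0.280 RPM in aar2-1 and 2.07 ± 0.722 RPM in WT, differed 5.29-fold, and the fitted log2 value of -1.13 (SE 0.24, limma adjusted p = 9.57e-04) understates this ratio near 1 RPM. Every aar2-1 library was below 1 RPM, so the entry reached the filter only through WT; in the fit of all 197 entries without a filter its limma adjusted p was 0.00223. It was also lower on the scaled values, by a log2 fold change of -0.65 (SE 0.23, adjusted p = 0.0240), and it passed in all 6 fits that left out a library. The scaled fit and these 6 fits held the entries chosen by the same filter, so they too include miR847 through WT.

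MIR840 lies in an exon of AT2G02750, and miR840 is known to target WHIRLY3, which encodes a DNA-binding protein. The entry miR840-5p had 4.17, 5.10 and 6.13 RPM in aar2-1, against 4.91, 4.31 and 5.996 RPM in WT, at a log2 fold change near 0 (0.01, SE 0.28, limma adjusted p = 0.983) and a scaled one of 0.92 (adjusted p = 0.00850). The values of the genotypes are interleaved. The opposite arm, miR840-3p, had 2.26, 1.27 and 1.02 RPM in aar2-1, against 2.45, 2.87 and 2.70 RPM in WT, with no overlap and a log2 fold change of -0.58 that did not pass (SE 0.25, limma adjusted p = 0.0536). This call depended on the setting: it passed with robust moderation (limma adjusted p = 0.0466) and without aar2-1 replicate 1 (limma adjusted p = 0.00928), and the scaled value was 0.11 (adjusted p = 0.753). The share of 5p among the reads of both arms was 64.9%, 80.0% and 85.7% in aar2-1, against 66.7%, 60.0% and 68.9% in WT. The share is a ratio within a library and does not depend on its scaling. It averaged 76.9% ± 10.8 in aar2-1 and 65.2% ± 4.64 in WT, and the genotypes overlapped (two-sided exact permutation p = 0.30, with 0.10 the smallest possible).

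The other hairpins with both arms listed had too few reads for this test. Pooled over 3 libraries, the 5p share was 58.2% in aar2-1 and 60.3% in WT for MIR829. It was 3.45% in aar2-1 and 6.58% in WT for MIR844, and 80.4% in aar2-1 and 94.1% in WT for MIR833a. These shares rest on 46 to 126 reads per genotype. Their 95% exact binomial intervals overlapped, cover counting error only, and give no test of a difference. For MIR833a they were 66.1% to 90.6% in aar2-1 and 85.6% to 98.4% in WT. Its 3p reads per library were 7, 2 and 0 in aar2-1, against 4, 0 and 0 in WT. The entry miR833a-5p, of an F-box targeting family, had 1.04 to 1.70 RPM in aar2-1 and 1.85 to 2.77 RPM in WT, with no overlap and no call (log2 fold change -0.47, SE 0.24, limma adjusted p = 0.0909).

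For 20 entries no role is stated here, and of the 7 tested, 4 fell and 0 rose on the deposited values, while 0 fell and 0 rose on the scaled ones. The count of 4 of 7 is close to the 61.1% of all tested entries that fell on the deposited values, where 2.29% rose. On the scaled values 20.6% fell and 16.8% rose. Of the 7, miR848, which fell, and miR829-3p.1 and miR865-5p, which did not pass, entered the filter only through WT. The entry miR866-3p had 2.43, 2.97 and 3.75 RPM in aar2-1, against 7.68, 9.12 and 8.82 RPM in WT. The means were 3.05 ± 0.662 RPM in aar2-1 and 8.54 ± 0.759 RPM in WT, 2.80-fold lower, far more than the spread within either genotype (-1.25 in log2, SE 0.28, limma adjusted p = 0.00130). On log2(RPM + 1) its fall was the largest of the 18, while by ratio of means, with a pseudocount of 0.1 (-2.25 for miR847 and -1.47 for miR866-3p) and on the scaled values that of miR847 was larger. The call of miR866-3p held in all 6 fits that left out a library, while its scaled log2 fold change was -0.33 (adjusted p = 0.393).

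The joined entry miR781a;miR781b had 16.7, 8.50 and 11.1 RPM in aar2-1, against 23.8, 19.2 and 22.8 RPM in WT (-0.85 on the log2 scale, SE 0.32, limma adjusted p = 0.0324). Likewise miR779.2 had 3.38, 3.398 and 1.14 RPM in aar2-1, against 5.66, 5.13 and 5.64 RPM in WT (-0.91 on the log2 scale, SE 0.31, limma adjusted p = 0.0189). In miR848, from an intron of AT5G13890, values were 1.21, 0.708 and 1.02 RPM in aar2-1, against 2.24, 2.05 and 1.76 RPM in WT (log2 fold change -0.61, SE 0.22, limma adjusted p = 0.0253). In all of these entries each aar2-1 value lay below each WT value, and the scaled log2 fold changes were 0.17, -0.09 and 0.01. Of the 6 fits that left out a library, 3 kept the call for miR781a;miR781b, miR775 and miR823, and 4 kept it for miR779.2 and miR848. The scaled fit and these 6 fits held the entries chosen by the same filter, so they too include miR848 through WT. The tested entries miR829-5p, miR829-3p.1 and miR865-5p overlapped between genotypes and did not pass (log2 fold changes -0.54, -0.34 and -0.46).

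The place of the hairpin was compared because AAR2 is tied to splicing. The mature sequence lay outside other genes of its strand for 28 of the 39 entries, in an intron of a gene on the same strand for 7 and in an exon for 4. Among those tested, 5 of 12 such intergenic, 2 of 4 intronic and 0 of 2 exonic entries fell, with median log2 fold changes of -0.50, -0.54 and -0.28, where 61.1% of all tested entries fell. The 2 exonic entries are the arms of MIR840, and the counts are too small to rank the classes. The entry miR781a;miR781b, among the intronic ones that fell, was placed by miR781a. The same sequence in miR781b lies outside other genes of its strand, so its reads cannot be assigned to the intron.

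The other 21 entries had means of 0.106 to 0.938 RPM and 0 to 22 reads in a library, and no entry was at 0 in all 6 libraries. The sum of their reads was 62, 20 and 37 in aar2-1, against 104, 94 and 99 in WT. Of the 21, 17 had a lower and 4 a higher mean in aar2-1. The 4 with a higher mean were miR777, miR833a-3p, miR859 and miR868-5p, at 2 to 9 reads per genotype, and the values of the genotypes overlapped for each of them. No overlap, with lower values in aar2-1, was seen for 7 of the 21, where 33.3% of all 66 entries under the filter had it, and 17 of the 21 had fewer than 10 reads in every library. In the fit without a filter, 4 of the 21 passed as lower and 0 as higher, where 46.2% and 3.55% of all 197 entries did: both arms of MIR841a, miR826a and miR860. The entry miR860, named after its values were seen, lies in an exon of FC1, a ferrochelatase gene of heme synthesis, and had 7, 2 and 4 reads in aar2-1, against 8, 22 and 10 reads in WT. The entries of the 21 not yet named with a value, miR861-3p, miR833b, miR858b, miR830-5p, miR829-3p.2, miR862-5p, miR864-5p, miR864-3p, miR870-3p, miR831-3p, miR780.1 and miR844-5p, had 0 to 10 reads in an aar2-1 library and 0 to 13 in a WT library. None of these 12 passed in the fit without a filter.

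**Figure D5:**
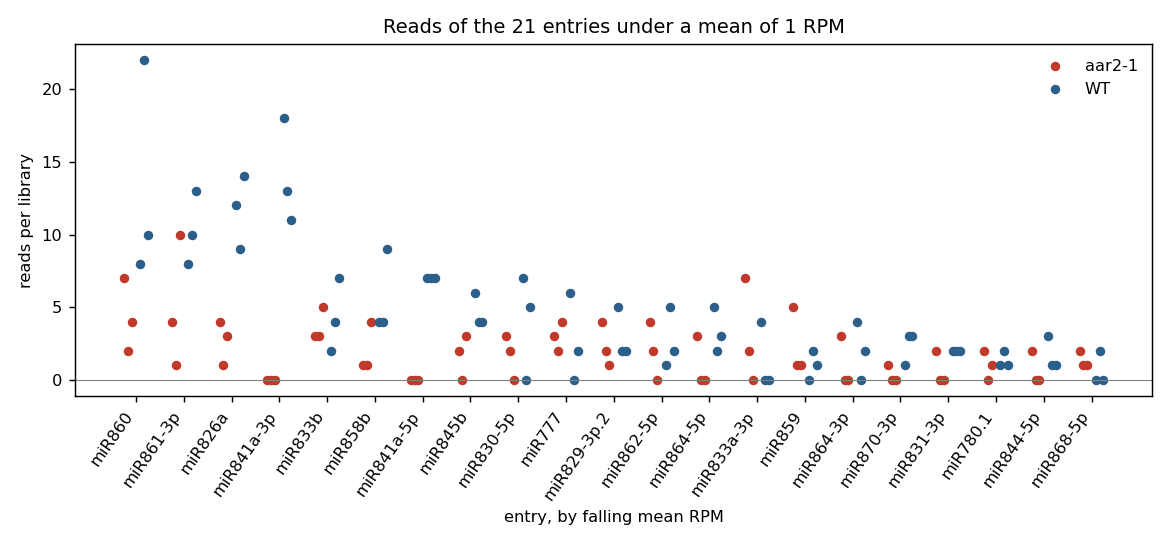
Reads of the 21 entries with a mean below 1 RPM in each library (points; linear axis), aar2-1 left of WT, ordered by mean RPM. Both arms of MIR841a lie at 0 in all 3 aar2-1 libraries and at 7 to 18 reads in WT, while most of the other entries have fewer than 10 reads and overlap.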

How the data were processed

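Per the labels' protocols, RNA of 14-day-old seedlings was extracted with TRI Reagent, and libraries were made with a NEBNext small RNA kit for Illumina. The submitters' processing notes name cutadapt, Bowtie and the build TAIR10; versions, read lengths kept, counting and the treatment of reads with several matches are not given in the sources used here. The authors deposited 1 table per library. The unit is not named and was taken as RPM. Each of the 1182 deposited values divided by the lowest value above 0 in its library gave a whole number to within 0.02. That number is the reads quoted, which takes the lowest value as 1 read. Whole numbers show scaled counts but not the size they were scaled to. Values in RPM were used as deposited.

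The main test was limma 3.58.1 (R 4.3.3) with genotype alone in the model, on log2(RPM + 1), a variance trend and two-sided Benjamini-Hochberg adjustment over the 131 of 197 entries with a mean of at least 1 RPM. A log2 fold change is aar2-1 over WT on that scale and understates the change of rare entries. Single ratios were compared with exact permutation tests of 3 against 3 libraries, whose smallest p is 0.10. Mature sequences and positions come from RefSeq on TAIR10.1, counted from 1; intron and exon refer to genes other than miRNA genes on the same strand. Entries given in every library were those past the threshold, the 8 tested ones with the largest mean, and untested ones present in all libraries of 1 genotype and in 0 of the other; all others named with their own values were chosen after these were seen. The members, lists and rules were chosen with earlier results of these data known. Alternatives were other pseudocounts and filters, a replicate block, a factor per library, robust moderation and leaving out each library. Python 3.11.15, pandas 2.3.3, numpy 2.4.6, scipy 1.17.1 and matplotlib 3.10.9 were used. Replicate numbers occur in both genotypes, but the labels name nothing that same-numbered libraries share.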

Additional observations from a re-analysis of the deposited data

How the results depend on the processing

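The 7 calls among the 18 tested entries stayed 7 with pseudocounts of 0.1 and 5 and became 8 with robust moderation, which added miR840-3p. Without a filter 11 of 39 members passed as lower, beside 46.2% of all entries, and with a mean of at least 10 RPM 2 of 6 did, beside 63.8%; at 10 RPM, 45 of 69 entries passed in either direction, against 83 of 131 at 1 RPM. The median log2 fold change of the tested members was -0.81 with a pseudocount of 0.1 and -0.23 with one of 5. With 1 factor per library, 49 of all entries, 27 lower and 22 higher, and 1 lower and 5 higher members passed; the median turned to 0.17 and the difference of the summed abundance to 116 RPM, from -61.6 RPM. The entries whose log2 fold change then turned positive were miR829-5p (0.17), miR829-3p.1 (0.23), miR865-5p (0.057), miR447a.2-3p (0.64), miR848 (0.014), miR833a-5p (0.26), miR781a;miR781b (0.17), miR844-3p (0.42), miR447a-3p;miR447b (0.91), miR840-3p (0.11) and miR858a (0.98); by construction the factor moves the median of all tested entries close to 0.

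Leaving out each library in turn gave 62 to 108 calls among all entries, 3 to 11 lower and 0 higher members, a median of -0.70 to -0.38, a difference in summed abundance of -93.9 to -40.1 RPM and in detected members of -6.83 to -2.83, and a difference in the 5p share of MIR840 of 7.24 to 17.7 percentage points. In these fits miR840-5p, at 0.01 with all libraries, ran from -0.10 to 0.129, and miR858a, at -0.08, ran from -0.249 to 0.0267.

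With the replicate number as a block, 98 of all entries and 8 members passed as called, the added member being miR840-3p (limma adjusted p = 0.0373), and the block changed no other member's call. The deviations of same-numbered libraries correlated at 0.49, 0.05 and -0.15, so the numbers were not taken as pairs; aar2-1 replicate 3 correlated best with WT replicate 2 (0.45). The planned tests on recovered reads were not run, since each table holds too few low values to check the recovery fully. The members under 1 RPM had at most 22 reads in a library, which limits the precision of their values.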
